A study of Rattus norvegicus with 6 samples.

Results

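The nuclear genes for the subunits of oxidative phosphorylation were compared between the formerly denervated and the contralateral tibialis anterior muscle of the rat. Members were the genes whose symbol marks a subunit of complex I (Nduf), complex III (Uqcr and Cyc1), complex IV (Cox4 to Cox8), complex V (Atp5) or cytochrome c (Cycs). They were found on probe sets annotated with a single symbol, and the brightest probe set stood for each gene. The rule gave 75 genes on 79 probe sets, out of 10411 named genes on 15923 probe sets. Of the 75 genes, 35 were assigned to complex I, 8 to complex III, 16 to complex IV and 16 to complex V, and no single-symbol probe set stood for Cycs. The assignment went by the symbol alone, so all members with an Nduf symbol, Ndufa4 among them, were counted under complex I. Such a symbol had to go on with a, b, c, s or v and a digit, so the complex I subunit Ndufab1 was not a member. Ndufab1 is given with the assembly factors. All but Cox6b2, a testis-type subunit listed at 2.9 to 11.7, were bright enough to be tested, which left 74. The match on symbols also took in 4 genes that are not regular subunits of these complexes, namely Cox6c-ps1 (a pseudogene), Cox7a2l (a factor of respiratory supercomplexes), Ndufa4l2 (a paralogue of Ndufa4) and Atp5if1 (the inhibitor of the ATP synthase). A further 9 probe sets carried several symbols of this family and are given no gene name here.

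Oxidative phosphorylation takes place in the inner mitochondrial membrane. Complex I takes electrons from NADH, complex III passes them to cytochrome c and complex IV hands them to oxygen, while each of these pumps protons. Complex V, the ATP synthase, lets the protons flow back and makes ATP. Skeletal muscle holds its mitochondria mainly in slow and fast oxidative fibres, and several subunits of complex IV exist there in a form particular to heart and skeletal muscle beside a form found in most tissues.

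The 6 muscles came from 3 male Wistar rats, 8 weeks old, operated on under ketamine and xylazine. In each animal the peroneal nerve had been cut and its end attached to the biceps femoris, and after 4 weeks both stumps were joined. The labels give a survival of 8 weeks, read here as the time after that repair. Total RNA of the ipsilateral (3 muscles) and the contralateral (3 muscles) tibialis anterior was put on 1 array per muscle, so the contralateral muscles come from operated animals and no unoperated animal was part of the comparison. The animals carry the numbers 4, 5 and 6. The nerve supply to the muscle after the repair is not described in the labels.

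Each difference is the log2 intensity of the ipsilateral muscle minus that of the contralateral muscle of the same animal, with a pseudocount of 15.8 added to each intensity first. The standard error (SE) and adjusted p come from limma's paired fit over 9519 probe sets with Benjamini-Hochberg adjustment. Median intensities of the arrays lay between 60.3 and 66.6, and the number of arrays limits the precision. Of the 74 tested members, 63 had a mean intensity above 1000. The 11 tested genes of fast fibres marked the tissue as fast skeletal muscle, with a summed intensity of 55790 to 62645 contralaterally and 46888 to 52888 ipsilaterally. Actin signal at the 3' end divided by that in the middle of the transcript, a sign of RNA integrity, was 2.77 on the contralateral array of animal 4 and 2.87 on the ipsilateral array of animal 6, against 1.36 to 1.68 on the other 4. Since bulk muscle was measured, fewer fibres or cells of a type and less RNA per cell cannot be told apart.

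Of the promoters of the members, those of Cox7a1, Cox6a2, Cox8b and Cox8a are shown because the results on complex IV turn on these muscle-type and general isoforms. Each is the stretch of 250 bases before the start of the gene, from RefSeq on build GRCr8, written 5′ to 3′ along the gene. Cox7a1 lies at chr1:94568966-94569215 on the plus strand, Cox6a2 at chr1:192219717-192219966, Cox8b at chr1:205408274-205408523 and Cox8a at chr1:213833624-213833873, the last 3 on the minus strand. Capitals mark matches to any of the 6 motifs described next.
Cox7a1: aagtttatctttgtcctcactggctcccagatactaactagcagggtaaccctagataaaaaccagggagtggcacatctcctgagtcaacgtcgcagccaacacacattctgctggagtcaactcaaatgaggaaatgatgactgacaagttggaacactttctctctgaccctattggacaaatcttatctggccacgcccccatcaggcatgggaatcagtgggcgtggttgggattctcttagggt
Cox6a2: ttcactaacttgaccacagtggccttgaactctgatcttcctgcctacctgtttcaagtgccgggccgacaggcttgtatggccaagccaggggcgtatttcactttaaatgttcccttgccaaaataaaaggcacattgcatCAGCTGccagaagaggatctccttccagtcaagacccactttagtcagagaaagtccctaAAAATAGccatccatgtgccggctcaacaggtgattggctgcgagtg
Cox8b: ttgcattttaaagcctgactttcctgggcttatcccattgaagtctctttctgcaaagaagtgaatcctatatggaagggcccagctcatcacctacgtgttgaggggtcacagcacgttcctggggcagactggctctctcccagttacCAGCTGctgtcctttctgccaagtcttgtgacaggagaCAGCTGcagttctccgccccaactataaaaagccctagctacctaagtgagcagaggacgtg
Cox8a: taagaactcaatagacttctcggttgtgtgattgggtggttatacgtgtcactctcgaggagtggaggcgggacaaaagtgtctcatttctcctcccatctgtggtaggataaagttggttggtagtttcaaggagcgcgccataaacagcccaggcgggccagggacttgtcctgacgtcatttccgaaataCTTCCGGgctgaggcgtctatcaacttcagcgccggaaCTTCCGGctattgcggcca

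The motifs were searched on both strands in the 250 bases before and 50 bases after the start, in 66 member promoters that matched by symbol and in all 33469 promoters. They were GCATGCGC (core of the NRF1 site), CCGGAAG (a GABPA or other ETS site), AAGATGGC (YY1), TCAAGGTCA (oestrogen-related receptors), AAAATAG (a MEF2 core) and CAGCTG (an E-box of muscle regulators). The last 2 were added after the sequences had been seen. The member promoters were 1 per gene, while the set of all promoters was limited neither to 1 per gene nor to genes on the array. The GABPA motif was in 27.3% of member promoters and 8.75% of all promoters, the YY1 motif in 22.7% and 3.17%, and the NRF1 motif in 9.09% and 2.47%. The oestrogen-related receptor motif was in 1.52% and 0.433%, the MEF2 core in 6.06% and 4.58%, and the E-box in 16.7% and 15.1%. In the stretches shown, Cox8a had 2 GABPA matches, at positions -57 and -19. Cox6a2 had an E-box at -107 and the MEF2 core at -47, and Cox8b had E-boxes at -100 and -62. Cox7a1 had none of the 6 motifs before its start and 1 E-box after it. These are matches of letters and not measured binding sites.

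As a whole, the 74 members differed little between the muscles, and over all 3 animals 1 gene stood far from the rest. Cox7a1, the heart and skeletal muscle form of subunit VIIa of complex IV, had a mean intensity of 398 ± 79.7 (SD, n = 3) contralaterally and 886 ± 388 ipsilaterally. Of the other 73 members, none had a mean log2 difference beyond -0.33 on the lower side or 0.64 on the higher. The differences of 63 of the 74 were within 0.2 of 0 on the log2 scale, and the median was -0.07, beside -0.02 over the 7117 named genes tested.

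No member passed the adjusted threshold of 0.05, and the share of all 7117 genes that passed was 0%. At limma's unadjusted p under 0.05 there was 1 member higher, Cox7a1, where 3.54% of all genes were higher at that level, and 2 lower, Ndufa3 and Ndufb4, where 2.88% of all genes were lower. The lowest adjusted p among the members was 0.442. The count of genes with an ipsilateral value above the contralateral one in all 3 animals was 5 of 74 members (6.76%), against 12.1% of all genes. The count with a lower value in all 3 was 14 of 74 (18.9%), against 15.8%. So lower members were more frequent than higher ones here, but the share of lower ones was near that of all genes. Of the 63 members with a mean intensity above 1000, 20.6% were lower and 3.17% higher in all 3 animals. Of the 444 other genes above 1000, 20.5% were lower and 13.1% higher. After quantile normalization of the arrays the counts over the 74 members were 11 higher and 11 lower.

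The complexes differed in how these 14 lower members were spread, as counts without a test. Complex I held 11 of them among 35 tested genes (31.4%), complex IV 2 among 15 (13.3%), complex V 1 among 16 (6.25%) and complex III 0 among 8. The share of all genes was 15.8%. The median log2 difference was -0.09 for complex I, -0.05 for complex III, 0.02 for complex IV and -0.07 for complex V. By animal, the median of complex I was -0.14, -0.03 and -0.05 in animals 4, 5 and 6. That of complex III was -0.22, 0.03 and 0.05, that of complex IV -0.18, -0.11 and 0.10, and that of complex V -0.11, -0.13 and 0.07. Animal 4 had a negative median in every complex, and animal 6 a positive one in every complex but I. The medians of all genes were -0.03, -0.03 and 0.01 in the same order. In animals 4 and 6 the array with the high actin ratio, contralateral in animal 4 (2.77) and ipsilateral in animal 6 (2.87), was on the side where the medians were higher, apart from complex I in animal 6. Without these 2 arrays, in a fit that no longer pairs the muscles, the medians were -0.089, -0.11, -0.11 and -0.12 for complexes I, III, IV and V, so that of complex IV turned negative. After quantile normalization of all arrays they were -0.027, 0.021, 0.031 and 0.016, and that of all members was 0.012, so the direction of complexes III and V and of the members as a whole turned. The part of RNA quality in the medians was not tested.

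**Figure D1:**
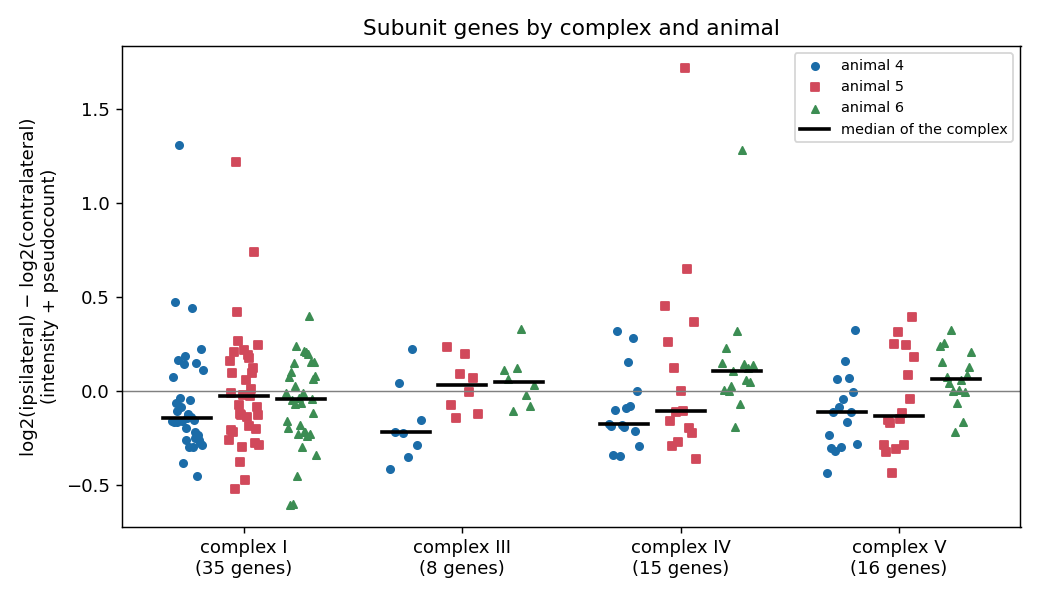
Log2 difference between the ipsilateral and contralateral muscle (vertical axis) of each tested member, by complex and animal; a point is 1 gene in 1 animal and a black bar the median of the complex in that animal. Most points lie within 0.5 of 0, and the high points are Cox7a1 in complex IV (animals 5 and 6) and Ndufa5 in complex I (animals 4 and 5).

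Complex I, the NADH dehydrogenase, has the most subunits, and it held most of the members that were lower throughout. Of its 35 tested genes, 11 (31.4%) were lower in all 3 animals and 1 was higher in all 3. In 9 of the 35 (25.7%) each ipsilateral intensity lay below each contralateral one, against 6.27% of all genes, and in 0 it lay above, against 4.81% of all genes. The shifts were small. The 11 genes were Ndufa1, Ndufa3, Ndufa8, Ndufa12, Ndufb2, Ndufb4, Ndufb6, Ndufb11, Ndufc1, Ndufs6 and Ndufs8, with mean log2 differences from -0.33 to -0.10. Among the 444 other genes with a mean intensity above 1000, 20.5% were lower in all 3 animals and 9.68% were lower without overlap. Under quantile normalization 9 of the 11 genes, and under median scaling 8, were still lower in all 3 animals, 7 of them under both. These 9 and 8 were 25.7% and 22.9% of the complex, against 17.3% and 20.7% of the other genes above 1000. Under median scaling the shares were thus close. Without overlap were then 5 and 6 of the 35 genes, against 5.97% and 5.49% of all genes.

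The largest negative difference of all members was that of Ndufa3, a small accessory subunit in the membrane arm. In animals 4, 5 and 6 its intensity was 2058, 2246 and 2697 contralaterally and 1836, 1930 and 1767 ipsilaterally. All 3 ipsilateral values lay below all contralateral ones, and animal 6 had the widest gap. The log2 difference was -0.33 (SE 0.14, adjusted p = 0.77).

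Ndufb4, another accessory subunit of the membrane arm, had intensities of 3570, 4214 and 3750 contralaterally and 3275, 3033 and 3049 ipsilaterally, the animals in the same order. Here too the groups did not overlap. The log2 difference was -0.30 (SE 0.12, adjusted p = 0.77). Ndufb1, also of the membrane arm, differed by -0.23 (SE 0.14), but its animals disagreed, with 0.14, -0.38 and -0.45.

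Ndufv1, the core subunit that binds NADH and FMN, was the 1 complex I gene higher in all 3 animals. Its intensities were 1609, 1584 and 1902 contralaterally and 1879, 1876 and 2118 ipsilaterally. The groups overlapped, since the contralateral value of animal 6 exceeded 2 of the ipsilateral ones. The log2 difference was 0.21 (SE 0.13, adjusted p = 0.811). Over the 6 core subunits measured (Ndufv1, Ndufv2, Ndufs1, Ndufs3, Ndufs7 and Ndufs8), which carry the flavin and the iron-sulphur clusters or line the quinone site, the median was -0.05, with 1 gene higher (Ndufv1) and 1 lower (Ndufs8) throughout. The 29 other complex I genes had a median of -0.09, and 10 of them were lower in each animal while 0 were higher in each.

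Ndufa5, an accessory subunit of the matrix arm, had the largest positive difference in complex I, 0.64 (SE 0.32, adjusted p = 0.776), and the most divided animals. Its intensities were 381, 482 and 961 contralaterally and 969, 1141 and 628 ipsilaterally. Animals 4 and 5 were thus far higher on the ipsilateral side, and animal 6 was lower. Without animal 6 the difference was 1.26, and without animal 4 or animal 5 it was 0.31 or 0.35. Ndufa6 differed by 0.18 (SE 0.14), the animals ranging from -0.04 to 0.42. Ndufs4, a small accessory subunit of the matrix arm, was also divided, with -0.45, 0.74 and 0.16 in animals 4, 5 and 6.

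**Figure D2:**
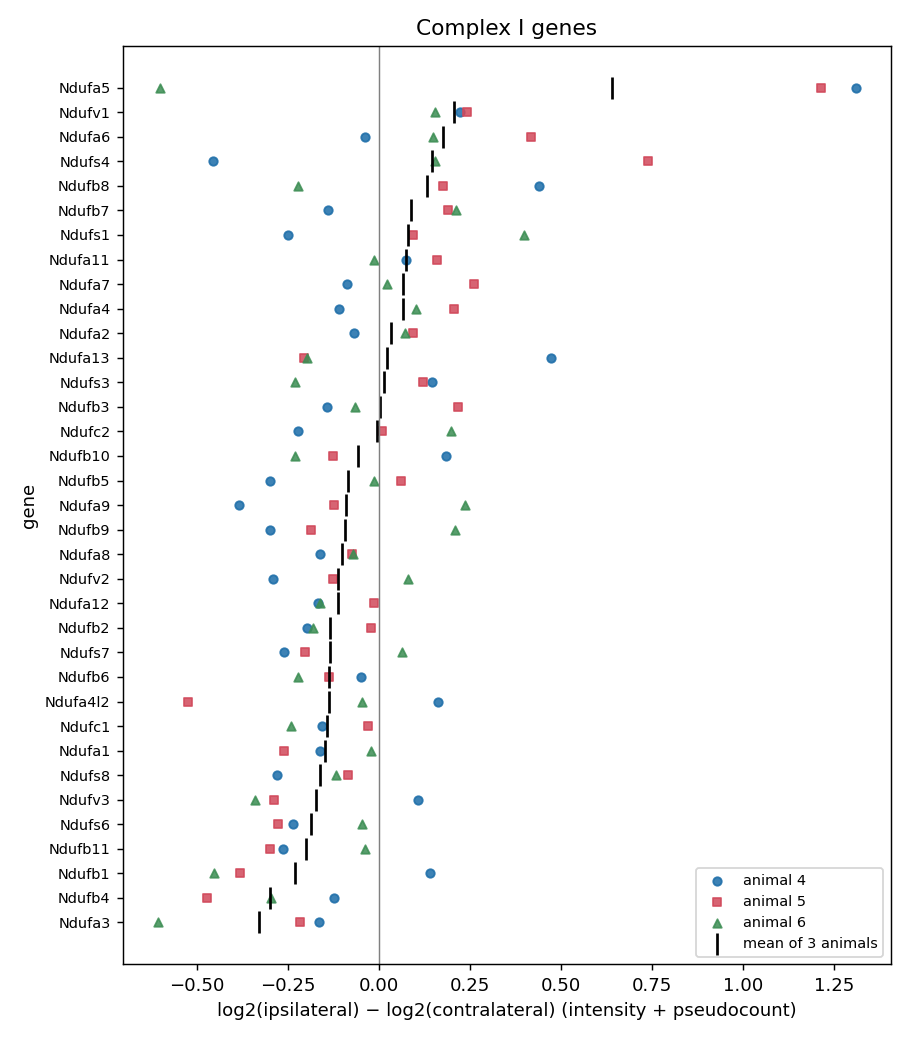
Log2 difference between ipsilateral and contralateral muscle (horizontal axis) of the 35 complex I genes, sorted by the mean of 3 animals (black tick); symbols are the single animals. The lower part holds the 11 genes with all 3 animals below 0, down to Ndufa3 at -0.33, while Ndufv1 alone has all 3 above 0.

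Complex III, the cytochrome c reductase, had mean differences close to 0. Its 8 genes lay between -0.10 and 0.06 on the log2 scale, 0 of them were on one side of 0 in all 3 animals, and the lowest adjusted p was 0.915. Cyc1, the haem protein cytochrome c1, was at 3659, 2569 and 3295 contralaterally and at 2736, 3019 and 3564 ipsilaterally in animals 4, 5 and 6. So it was lower in animal 4 and higher in animals 5 and 6. The same split was seen for Uqcrc1 and Uqcrc2, the large core proteins on the matrix side, with -0.22, 0.09 and 0.12 for Uqcrc1 and -0.35, 0.19 and 0.33 for Uqcrc2. Uqcrfs1, the Rieske iron-sulphur protein, ran the other way, with 0.22, -0.0046 and -0.022. The small subunits Uqcrh, Uqcrq, Uqcr10 and Uqcr11 had means of -0.10, -0.08, -0.08 and -0.07, with SEs of 0.12. The difference of Uqcr10 turned to 0.032 under quantile normalization.

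In complex IV, cytochrome c oxidase, Cox7a1 was the member with the largest difference of all 74. In animals 4, 5 and 6 its intensity was 483, 386 and 325 contralaterally and 539, 1305 and 813 ipsilaterally. Each ipsilateral value exceeded each contralateral one, but in animal 4 by little. The log2 difference was 1.05 (SE 0.26, adjusted p = 0.442), a 2.07-fold higher ipsilateral level, with 0.15, 1.72 and 1.28 in animals 4, 5 and 6. Among the 12 alternatives, Cox7a1 passed limma's adjusted threshold in the fit without animal 4 and in no other, with a difference of 1.5 (adjusted p = 0.000791). In that fit 241 probe sets passed in all, and the fit had 1 animal less to estimate the spread. Without animal 5 the difference of Cox7a1 was 0.72 and without animal 6 it was 0.94. Its place at the top rests on animal 6, since without that animal the 1.26 of Ndufa5 was the larger.

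Slow-fibre genes were higher along with Cox7a1. All 9 genes of that list (Myh7, Myl2, Myl3, Tnnc1, Tnni1, Tnnt1, Tpm3, Atp2a2 and Csrp3) were tested. The dimmest, Tpm3, had means of 176 contralaterally and 486 ipsilaterally. Of the 9 genes, 6 were higher in all 3 animals (66.7%, against 12.1% of all genes). At limma's unadjusted p under 0.05, 8 were higher (88.9%, against 3.54% of all genes), and 0 passed the adjusted threshold. Their summed intensity ran from 9382 to 12325 contralaterally and from 14615 to 28460 ipsilaterally, and their median log2 differences were 0.30, 2.20 and 1.12. Adipocyte genes had a summed intensity of 1164 to 1755 contralaterally and 1612 to 2515 ipsilaterally over the 6 of 8 listed genes on the array. The 4 of them that were tested had medians of 0.46, 0.67 and 0.64. Of these 4, 3 were higher in all 3 animals and at limma's unadjusted p under 0.05, against 12.1% and 3.54% of all genes. The adjusted threshold was passed by 0, and Pck1 was lower in animal 4. Leptin (Lep) was listed near 0, at 3.13 contralaterally and 2.63 ipsilaterally. The part of either list in the difference of Cox7a1 was not tested.

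The other muscle-type isoforms of complex IV did not share the higher value of Cox7a1. Cox6a2, the muscle form of subunit VIa, was at 5105, 4765 and 4320 contralaterally and at 4010, 4401 and 4642 ipsilaterally in animals 4, 5 and 6. The groups overlapped, and the log2 difference was -0.12 (SE 0.12, adjusted p = 0.89). Cox8b, the muscle form of subunit VIII, was at 4525, 5186 and 4058 contralaterally and at 3685, 4035 and 4465 ipsilaterally, a difference of -0.17 (SE 0.13, adjusted p = 0.847). Both were lower in animals 4 and 5 and higher in animal 6, except that Cox6a2 was higher in animal 5 (0.092) after quantile normalization, where the means were -0.021 for Cox6a2 and -0.093 for Cox8b.

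The general forms of these subunits lay on the other side of 0. Cox6a1 was at 470, 632 and 608 contralaterally and at 589, 688 and 620 ipsilaterally, and so was higher in all 3 animals, by little in animal 6. Its log2 difference was 0.15 (SE 0.15, adjusted p = 0.873). Cox8a was at 1418, 1492 and 1441 contralaterally and at 1415, 1929 and 1491 ipsilaterally, a difference of 0.14 (SE 0.14, adjusted p = 0.885). The muscle form minus the general form, as a difference of these log2 differences within an animal, was -0.66, -0.23 and 0.08 for Cox6a2 and Cox6a1 in animals 4, 5 and 6 (mean -0.27 ± 0.37, SD, n = 3). It was -0.29, -0.73 and 0.09 for Cox8b and Cox8a (mean -0.31 ± 0.41). Both spreads exceed their means. The general form of subunit VIIa, the partner of Cox7a1, had no single-symbol probe set.

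Subunit IV also has 2 forms, of which Cox4i1 is found in most tissues and Cox4i2 chiefly in lung. Cox4i1 differed by 0.14 (SE 0.14), with -0.18, 0.45 and 0.15 in animals 4, 5 and 6, and without animal 5 its mean was -0.02. Cox4i2 differed by 0.02 (SE 0.16). Cox4i2 minus Cox4i1 was -0.12 ± 0.09, below 0 in all 3 animals, with -0.01, -0.19 and -0.14 in animals 4, 5 and 6. Cox4i2 was dim, at means of 72.2 contralaterally and 74.8 ipsilaterally, so the pseudocount weighs on this value. With the pseudocount at the 40th percentile it was -0.12 ± 0.14, a spread larger than the mean.

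Among the other complex IV members, Cox6b1, which sits at the dimer interface on the intermembrane side, differed by -0.21 (SE 0.12, adjusted p = 0.782). It was at 2647, 3409 and 3023 contralaterally and at 2332, 2826 and 2642 ipsilaterally. It was lower in all 3 animals, although the groups overlapped. The pseudogene Cox6c-ps1 was the other one lower in all 3, at -0.09 (SE 0.15). Cox5b, a zinc-binding subunit of the matrix side, differed by -0.13 (SE 0.11), and by 0.011 under quantile normalization. Cox7a2l differed by 0.24 (SE 0.17), with -0.08, 0.65 and 0.14 in animals 4, 5 and 6. Leaving out Cox7a1, the median of the complex was -0.03.

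**Figure D3:**
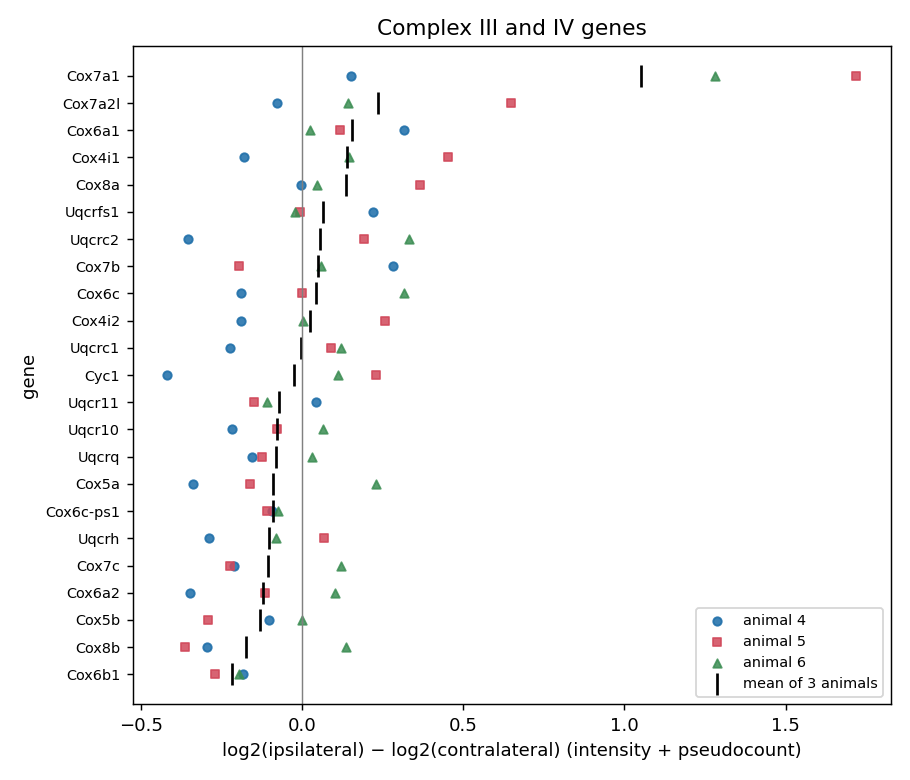
Log2 difference between ipsilateral and contralateral muscle (horizontal axis) of the 8 complex III and 15 complex IV genes, sorted by the mean of 3 animals (black tick); symbols are the single animals. Cox7a1 lies at 1.05 with animal 4 at 0.15, and the next gene, Cox7a2l, at 0.24.

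**Figure D4:**
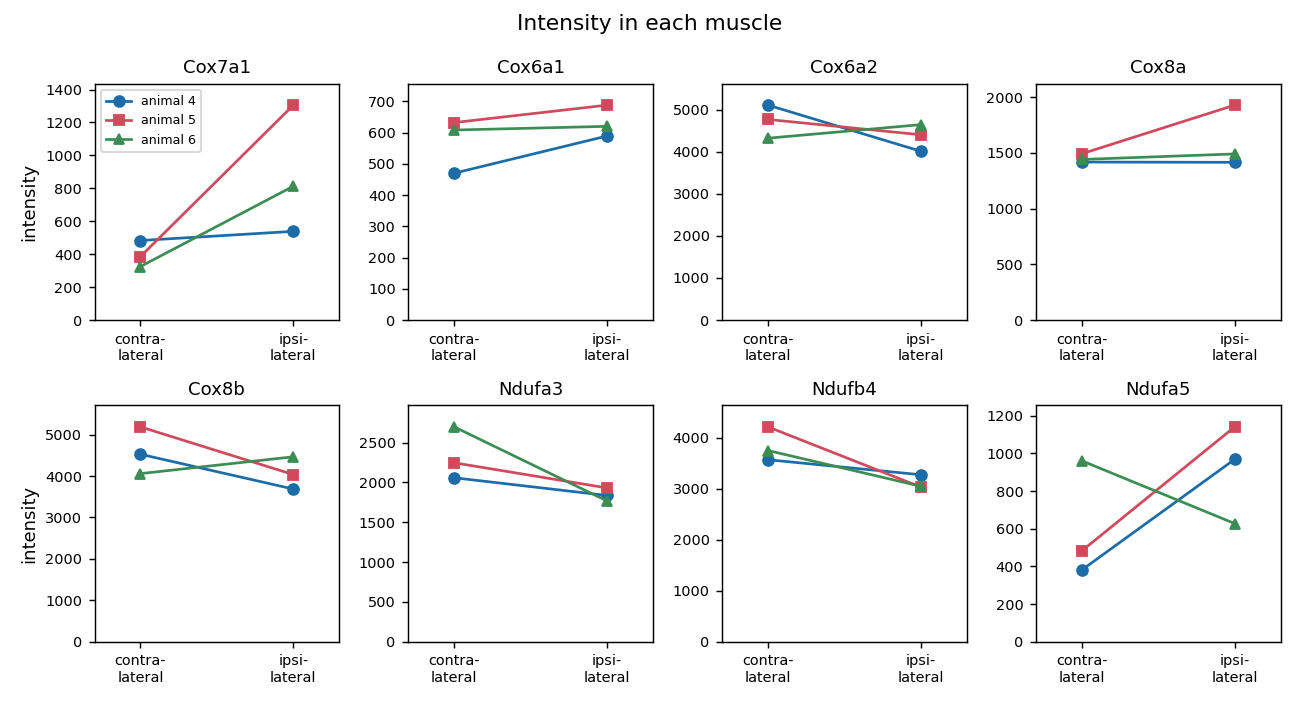
Intensity (vertical axis, from 0) in the contralateral and ipsilateral muscle of each animal, joined by a line, for 8 members. Cox7a1 is higher in all 3 animals, Ndufa3 and Ndufb4 are lower in all 3, Ndufa5 runs opposite ways, and the muscle forms Cox6a2 and Cox8b are lower ipsilaterally in animals 4 and 5 and higher in animal 6.

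In complex V, the subunits of the catalytic F1 head kept together within an animal while the animals differed. All 5 of them, Atp5f1a and Atp5f1b (the alpha and beta subunits of the hexamer), Atp5f1c (the rotating gamma subunit), Atp5f1d and Atp5f1e, were lower in animals 4 and 5 and higher in animal 6. The group's median was -0.30, -0.29 and 0.15 in these animals. With median scaling the same split was found. After quantile normalization the medians were -0.077, -0.054 and 0.091, and 0, 1 and 4 of the 5 genes were higher in animals 4, 5 and 6, with Atp5f1e at exactly 0 in animal 5. The F1 genes had mean intensities of 2938 to 7039. This is near the top of the scale, where the highest value of an array ranged from 6298.5 to 9181.4 between arrays. The part of that range in the split was not tested. Here too the higher side was that of the array with the high actin ratio in animals 4 and 6, and the part of RNA quality in the split was not tested. In animal 5, whose arrays had ratios of 1.54 and 1.53, the median was the -0.29 given above. The split was not particular to the F1 head. Outside it, Atp5mk was at -0.17, -0.29 and 0.06 in animals 4, 5 and 6. The fast-fibre gene Tnni2 was at -0.34, -0.48 and 0.04, and Slc25a4, listed under ATP and ADP exchange, at -0.30, -0.43 and 0.09. Other genes did not follow it, such as Atp5po with -0.28, 0.18 and 0.21.

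Atp5f1b was at 5022, 6012 and 5314 contralaterally and at 4264, 4804 and 5906 ipsilaterally, a log2 difference of -0.14 (SE 0.13, adjusted p = 0.866). Atp5f1a, at 4259, 4308 and 3818 contralaterally and 3145, 3527 and 4506 ipsilaterally, differed by -0.16 (SE 0.15, adjusted p = 0.862). Atp5f1e, the epsilon subunit, had the largest negative difference of the complex, -0.24 (SE 0.12, adjusted p = 0.776), and -0.035 under quantile normalization. In all 3 genes the groups overlapped.

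The peripheral stalk holds the head still while the rotor turns. Its 4 subunits Atp5pb, Atp5pd, Atp5pf and Atp5po had a median of 0.02, and -0.06, 0.13 and 0.10 by animal. Atp5pf, coupling factor 6, was the highest of the complex. It was at 1858, 2273 and 2651 contralaterally and at 2330, 2994 and 2891 ipsilaterally in animals 4, 5 and 6. It was higher in all 3 animals with overlapping groups, and differed by 0.28 (SE 0.13, adjusted p = 0.776).

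Atp5if1, which stops the enzyme from splitting ATP when the proton gradient fails, was also higher in all 3 animals. Its probe set read 226, 257 and 238 contralaterally and 237, 309 and 302 ipsilaterally, a difference of 0.21 (SE 0.15, adjusted p = 0.846). Its 2 dimmer probe sets, at means of 18.4 and 3.27 contralaterally, were not tested. Atp5mpl, a small membrane subunit, differed by 0.05 (SE 0.14). The sole gene of the complex lower in all 3 animals was Atp5mf, a subunit of the membrane part, at -0.09 (SE 0.11), although after quantile normalization it was higher in animal 4.

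**Figure D5:**
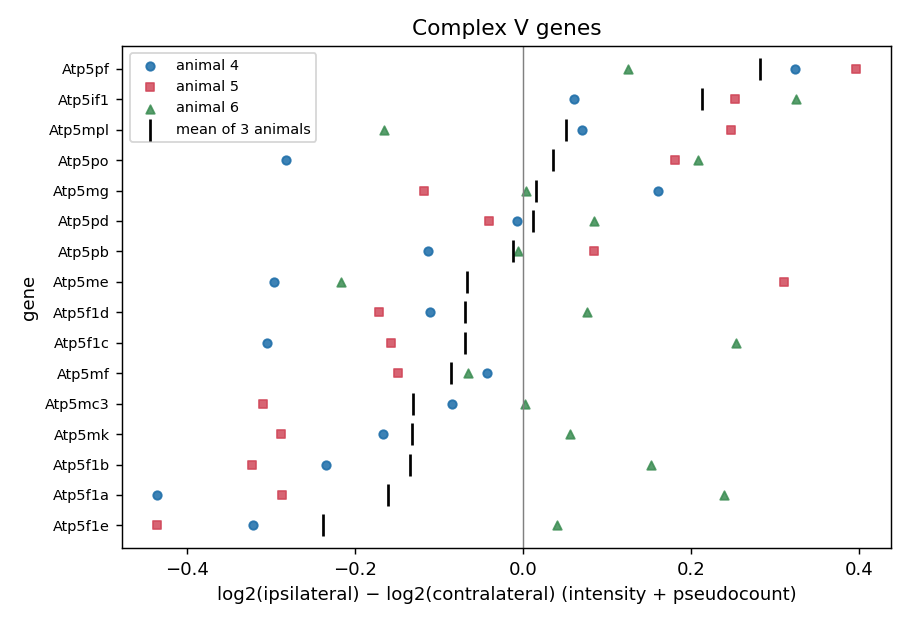
Log2 difference between ipsilateral and contralateral muscle (horizontal axis) of the 16 complex V genes, sorted by the mean of 3 animals (black tick); symbols are the single animals. Atp5pf and Atp5if1 have all 3 animals above 0, and the 5 F1 genes (Atp5f1a to Atp5f1e) have animals 4 and 5 below 0 and animal 6 above it.

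Complex II, the succinate dehydrogenase, which feeds electrons into the same chain, is not covered by the rule. Its 4 genes had a median of 0.09, with 2 higher and 0 lower in all 3 animals, where 12.1% and 15.8% of all genes were, and 0 at an unadjusted p under 0.05. Sdhb, the iron-sulphur subunit, differed by 0.16 (SE 0.13) and was higher in all 3 animals. Sdha, the flavoprotein, differed by -0.15 (SE 0.14), with -0.44 in animal 4.

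Of 43 listed assembly factors, which build the complexes without staying in them, 33 were tested and had a median of -0.06. Each animal had the lower value ipsilaterally for 7 of them (21.2%, against 15.8% of all genes) and the higher one for 1 (3.03%, against 12.1%). At an unadjusted p under 0.05 there were 3 lower (9.09%, against 2.88%) and 0 higher. Pet100, a factor of complex IV, was lower by a log2 difference of -0.48 (SE 0.15, adjusted p = 0.586), with -0.61, -0.47 and -0.35 in animals 4, 5 and 6. Cox19, a copper-route factor of complex IV, differed by -0.43 (SE 0.16). The third, named after its value was seen, was the acyl carrier protein Ndufab1, which is also a subunit of complex I, at -0.29 (SE 0.12) and lower in all 3 animals.

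Of the 18 listed regulators of mitochondrial biogenesis, 8 were tested, with a median of 0.01 and 0 at an unadjusted p under 0.05 in either direction. Polg, the mitochondrial DNA polymerase, differed by -0.30 (SE 0.15) and was lower in all 3 animals, and Polrmt, the mitochondrial RNA polymerase, by -0.17 (SE 0.17). The coactivator Ppargc1a was too dim to be tested, at a mean of 3.17 contralaterally and 1.5 ipsilaterally. Of 13 listed genes of ATP and ADP exchange and uncoupling, 9 were tested, with a median of -0.19, 1 lower and 0 higher in all 3 animals and 0 at that p. Their median was -0.05, -0.29 and 0.06 by animal, and after quantile normalization it was -0.074, with 1 lower and 1 higher in all 3 animals. The uncoupling proteins Ucp3 and Ucp2 differed by -0.37 (SE 0.18) and -0.33 (SE 0.17). The difference of Ucp3 was 0.081, -0.50 and -0.69 in animals 4, 5 and 6.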

How the data were processed

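Total RNA of 6 muscles was measured on 1 array each. The authors deposited linear intensities, with a single value for each probe set on each array. The mean without the lowest and highest 2% of values, averaged over the 6 arrays, was 150.05, as found from the values. Since only this average was taken, it does not show whether the arrays were scaled to 1 level. The intensities were made with software not given in the sources used here. Samples were grouped by title, with Cont read as contralateral, and the number in the title gave the animal.

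The table has 15923 probe sets, of which 57 controls were dropped. GEO's annotation of the platform, possibly dated, paired 12783 of the others with 1 symbol and 312 with several. Gene IDs of 12748 were in a gene table of GRCr8, which changed 0 symbols. The 20th percentile of all values, 15.8, was added to each intensity before taking log2. Array medians lay within 0.115 on this scale, below the limit of 0.2, so no further normalization was made. Probe sets with a mean above the 40th percentile (an intensity of 42.4) were tested with limma 3.58.1 in R 4.3.3 (lmFit, eBayes with trend, animal as a block, 2 residual and 7.47 prior degrees of freedom) and Benjamini-Hochberg adjustment over 9519 probe sets. The fit was tested on simulated data.

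Both muscles are of 1 animal, which gives the pairing. Deviations from the group means correlated between them at -0.04, 0.07 and 0.13 in animals 4, 5 and 6. The members and gene lists were chosen with earlier results of these data known. Named were, per complex, the 3 highest and 3 lowest members, those of unadjusted p under 0.05, the isoforms of complex IV, Atp5if1 and up to 2 genes of each related list with the smallest p; others were added to show a group. Marker lists of fibre types and of other cells were set beside the members. Their medians were -0.25 for fast fibre, 0.18 for endothelial, -0.34 for macrophage, 0.30 for Schwann cell, -0.13 for erythroid and -0.01 for fibroblast genes. Only 3 Schwann cell genes were tested, of which Pmp22 and S100b were higher and Mbp lower in all 3 animals. Of the 11 fast-fibre genes, 2 (Myh1 and Myh2) had positive and 9 negative means. After quantile normalization the fast-fibre median was -0.076. Promoters were taken from RefSeq (GRCr8). Alternatives covered the block, pseudocount, normalization, filter, variance prior, probe set choice and libraries left out. Per-complex counts and the comparison with other bright genes were added after the data had been seen.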

Additional observations from a re-analysis of the deposited data

How the results depend on the processing

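The numbers pair the muscles by animal, and the fit without the block by animal gave 0 members past the adjusted threshold and the same counts as with it. Quantile normalization gave 2 members higher and 1 lower at an unadjusted p under 0.05, 11 higher in all animals and a complex I median of -0.027. Members lower at an unadjusted p under 0.05 were 1 with median scaling, 0 without the filter on dim probe sets and 0 without the intensity trend, and members higher were 2 with the mean of all tested probe sets. The unblocked fit without contralateral 4 and ipsilateral 6 gave 1 probe set past the adjusted threshold, 5 members lower at an unadjusted p under 0.05 and -0.29 for Cox4i2 minus Cox4i1; counts over animals could not be made there. The causes were not tested.

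With 1 animal left out in turn, 0 to 241 probe sets and 0 to 1 members passed, both maxima without animal 4. At an unadjusted p under 0.05 there were 1 to 3 members higher and 0 to 4 lower. With 2 animals left to share a direction, 7 to 22 members were higher and 19 to 33 lower in both, where 20.4% to 29.6% and 23.6% to 31.2% of all genes were.

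Of 336 recomputed differences of 28 named members, 13 changed sign. With quantile normalization Uqcrc1 was at 0.025, Uqcr10 at 0.032 and Cox5b at 0.011, and with median scaling Uqcrc1 was at 0.0059. With 1 animal left out, the differences ran from -0.066 to 0.11 for Uqcrc1, from -0.079 to 0.26 for Uqcrc2, from -0.013 to 0.11 for Uqcrfs1, from -0.048 to 0.16 for Atp5mpl, from -0.015 to 0.30 for Cox4i1 and from -0.092 to 0.13 for Cox4i2. In the unblocked fit without contralateral 4 and ipsilateral 6, Uqcrfs1 was at -0.089 and Cox4i2 at -0.032.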

Other observations

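Outside the comparison, the 9 probe sets with several symbols of this family had mean log2 differences from -0.24 to 0.25, with 2 lower and 0 higher in all 3 animals. The 5 member probe sets below the filter on dim signals were not tested.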
